A study of Homo sapiens with 18 samples.

Results

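Integrins and the proteins of focal adhesions were examined as targets of glucocorticoid receptor (GR) binding in cells depleted of Hic-5. The set held 39 genes of the 20033 protein-coding genes of the annotation, namely 12 integrin α subunits, 6 β subunits and 21 proteins that join integrins to actin or signal from them. The rule took the genes by name, for their place in cell adhesion, and used no measured value, although the set was proposed with earlier results of these data known. GR binding regions (GBR) were assigned to a gene when the summit of the peak lay within 50 kb of its canonical transcription start site (TSS). In cells depleted of Hic-5 alone, 63 of 9533 GBR were assigned in this way.

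GR was immunoprecipitated from U2OS-GRα cells, an osteosarcoma line that stably expresses a GRα transgene, and the DNA was sequenced (ChIP-seq). The cells were transfected for 48 h with a pair of siRNAs and then given 100 nM dexamethasone (dex), a synthetic glucocorticoid, for 1 h. The pairs were siNS/siNS (nonspecific siRNA only), siHic5/siNS (Hic-5 depleted), siCHD9/siHic5 and siBRM/siHic5 (Hic-5 depleted together with a chromatin remodeler), and siCHD9/siNS and siBRM/siNS (remodeler depleted, Hic-5 present). Each pair had 2 ChIP replicates and 1 input library. All groups received dex, so binding without hormone was not measured, and GR came from a transgene. The depletion of each target could not be checked from peak lists.

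Each of the 6 deposited lists pools the replicates of its group. A group is thus 1 value with no replicate spread, a call is a yes or no, and no test across replicates was possible. The lists held from 1278 (siBRM/siNS) to 9533 (siHic5/siNS) GBR, and their lowest −log10 q-value ran from 7.26 to 14.2, the highest in siBRM/siHic5. Whether a missing call near an adhesion gene goes with these unequal limits was not tested. Shares are given with 95% Wilson intervals, which cover counting error only.

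Integrins are receptors made of an α and a β subunit that bind the extracellular matrix. Inside the cell, talin and kindlin bind the β tail, and vinculin, α-actinin, filamin, parvins and tensins connect it to actin, while focal adhesion kinase and paxillin carry the signal onward. Hic-5, encoded by TGFB1I1, is a LIM protein of the paxillin family that resides in focal adhesions and also enters the nucleus, where it acts as a coregulator of GR. CHD9 and BRM are ATPases that move nucleosomes.

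GBR called in siHic5/siNS but overlapped by no siNS/siNS peak are called Hic-5 blocked, and the others shared. These classes rest on calls alone. The blocked class that the authors used for their later comparisons also required a significant rise in GR signal, which was not assessed here. The sequences of 8 GBR are shown because the results turn on them: the 3 strongest shared and the 3 strongest blocked GBR whose sequence could be printed, and the GBR at the TSS of ITGB1 and ZYX, which were added after their values were seen. Each is 120 bases of the plus strand of GRCh38 around the summit. Capitals mark matches on either strand to a glucocorticoid response element (GRE) core, ACANNNTGT, to an AP-1 site, TGACTCA or TGAGTCA, or to an ETS site, CAGGAAG or CCGGAAG.
ITGA5, shared, chr12:54421261-54421380: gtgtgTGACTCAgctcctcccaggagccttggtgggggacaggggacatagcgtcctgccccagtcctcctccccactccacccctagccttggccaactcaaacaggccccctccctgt
ITGB6, shared, chr2:160228760-160228879: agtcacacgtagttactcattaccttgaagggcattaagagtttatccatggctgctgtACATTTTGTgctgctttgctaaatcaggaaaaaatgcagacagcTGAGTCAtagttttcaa
TNS4, shared, chr17:40510391-40510510: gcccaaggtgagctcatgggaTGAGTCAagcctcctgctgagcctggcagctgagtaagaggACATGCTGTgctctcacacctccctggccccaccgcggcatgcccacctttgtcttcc
ITGB8, blocked, chr7:20341002-20341121: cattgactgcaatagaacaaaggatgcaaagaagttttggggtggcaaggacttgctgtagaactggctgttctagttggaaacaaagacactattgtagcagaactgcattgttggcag
TNS4, blocked, chr17:40484596-40484715: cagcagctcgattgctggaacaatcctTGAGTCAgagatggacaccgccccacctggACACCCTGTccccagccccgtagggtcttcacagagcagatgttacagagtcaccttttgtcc
BCAR1, blocked, chr16:75238328-75238447: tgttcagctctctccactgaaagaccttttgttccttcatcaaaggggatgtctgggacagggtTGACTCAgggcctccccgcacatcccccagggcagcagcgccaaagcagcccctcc
ITGB1, blocked, chr10:32958331-32958450: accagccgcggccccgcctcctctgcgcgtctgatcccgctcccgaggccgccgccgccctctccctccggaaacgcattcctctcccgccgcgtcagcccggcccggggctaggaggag
ZYX, blocked, chr7:143381107-143381226: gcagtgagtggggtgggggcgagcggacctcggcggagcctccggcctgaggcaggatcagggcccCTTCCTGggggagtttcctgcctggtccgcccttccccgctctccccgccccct
In the ITGB6 sequence and in both TNS4 sequences a GRE core lay within 6 bp of the summit, and each also held an AP-1 site. The ITGA5 and BCAR1 sequences held an AP-1 site alone and ZYX an ETS site alone. The ITGB8 and ITGB1 sequences held no exact match to these letters.

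Depletion of Hic-5 was accompanied by GBR near more genes, both among the members and among protein-coding genes at large. In siNS/siNS cells, 15 of 39 members (38.5%, interval 24.9% to 54.1%) had a GBR, beside 9.46% of all protein-coding genes. In siHic5/siNS cells, 27 members (69.2%, 53.6% to 81.4%) had a GBR, beside 27.1% of all genes. With CHD9 depleted too, 14 members (35.9%) had a GBR against 8.99% of all genes, and with BRM depleted too, 17 (43.6%) against 12.4%. With Hic-5 present, 9 members (23.1%) had a GBR after CHD9 depletion against 5.75% of all genes, and 7 (17.9%) after BRM depletion against 5.23%. Members thus held GBR more often than protein-coding genes at large in each of the 6 lists, and the lists had the same order by members with a GBR as by their total size.

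**Figure D1:**
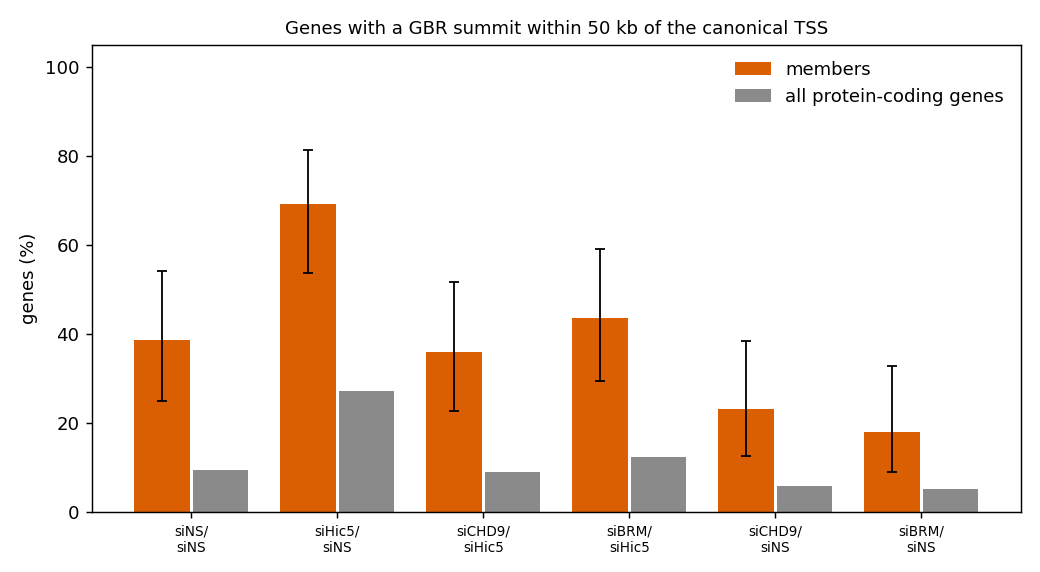
Percentage of the 39 members (orange, with 95% Wilson intervals for counting error) and of all 20033 protein-coding genes (grey) with a GBR summit within 50 kb of the canonical TSS, for each siRNA combination (1 pooled list each). The orange bar is the taller in each list, 69.2% against 27.1% in siHic5/siNS.

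Of the 63 siHic5/siNS GBR near members, 46 were blocked (73.0%, 61.0% to 82.4%), a share near the 74.0% of all siHic5/siNS GBR and the 74.1% of those within 50 kb of any protein-coding TSS. Members thus had a GBR more often than genes at large, with a blocked share close to that of the list. There were 13 members with blocked GBR only, 5 with shared GBR only, 9 with both and 12 with none. Of the 18 siNS/siNS GBR near members, 1 (5.56%) had no siHic5/siNS peak, beside 3.18% of all siNS/siNS GBR. It lay in an intron of ACTN1.

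When CHD9 was depleted together with Hic-5, 46 of the 63 GBR (73.0%) were no longer called, beside 75.4% of the whole list. Of the blocked GBR, 42 of 46 (91.3%, 79.7% to 96.6%) were absent, beside 90.6% in the list. Of the shared GBR, 4 of 17 (23.5%, 9.56% to 47.3%) were absent, beside 32.3%. Loss of the call near members was thus far more frequent at blocked than at shared GBR, as it was across the list.

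When BRM was depleted together with Hic-5, 39 of 63 GBR (61.9%) were absent, beside 65.4% of the whole list. The blocked GBR accounted for 36 of these (36 of 46, 78.3%, 64.4% to 87.7%), beside 83.3% in the list, and the shared for 3 (3 of 17, 17.6%, 6.19% to 41.0%), beside 14.3%. Both double depletions lacked 35 of the 46 blocked GBR (76.1%, beside 79.5%) and 3 of the 17 shared GBR (17.6%, beside 11.2%). The 11 blocked GBR still called comprised 3 called in both double depletions, 7 in siBRM/siHic5 only and 1 in siCHD9/siHic5 only. The higher loss at blocked GBR held under the other windows, overlaps and strength limits tried, except among the 1000 strongest peaks of each list, which left 9 GBR near members.

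Across the 6 lists, 35 of the 63 GBR (55.6%) were called in siHic5/siNS alone, beside 58.7% of the whole list, and 5 (7.94%) were called in all lists, beside 9.25%. The genes with a GBR in all lists were ITGA10, ITGB6, PTK2, TNS2 and TNS4. For 8 members (ITGA8, ITGAV, ITGB3, TLN1, ACTN1, FLNA, PARVB and TNS1) every siHic5/siNS GBR was in that list alone. For 10 members no siHic5/siNS GBR was called in either double depletion, and for 4 others (ITGB1, BCAR1, ZYX and VASP) at least 1 was called in siBRM/siHic5 while siCHD9/siHic5 called none. Across the list, 79.5% of blocked GBR were absent from both double depletions. These gene counts were not made for all protein-coding genes, so the genes named are not set apart by them.

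**Figure D2:**
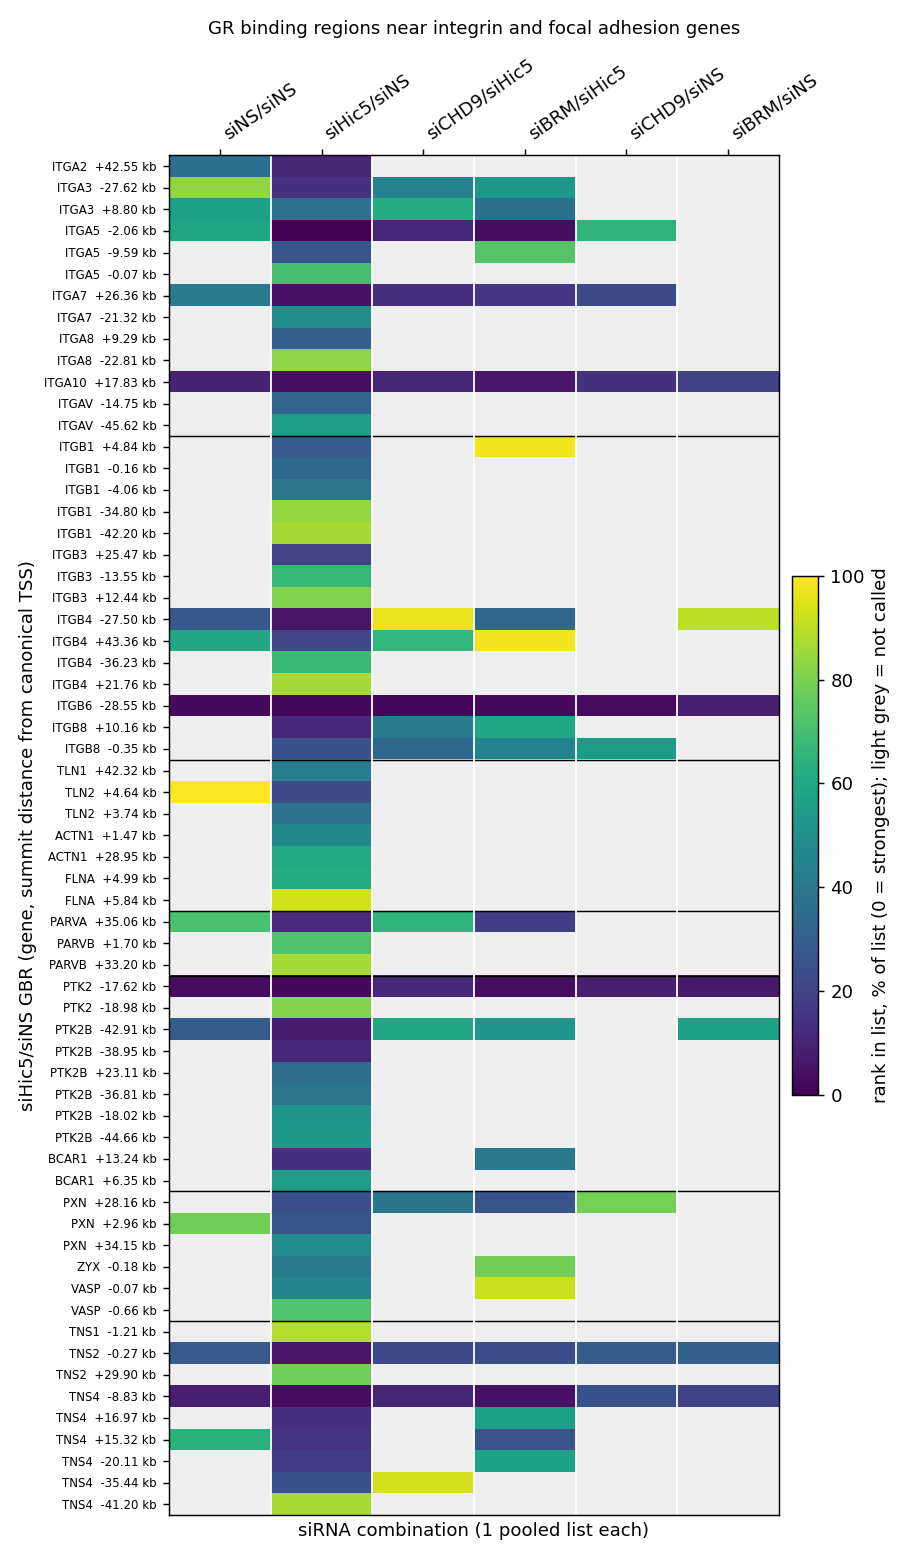
The 63 siHic5/siNS GBR near members (rows, ordered by the role of the gene with black lines between roles, each with its summit distance in kb from the canonical TSS, negative upstream) in the 6 lists (columns). Colour gives the rank within the list as a percent of its length (0 is the strongest) and light grey marks no overlapping peak; most rows are coloured in siHic5/siNS alone, and 5 are coloured throughout.

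Depletion of a remodeler with Hic-5 present was compared with siNS/siNS. Of the 18 siNS/siNS GBR near members, 11 (61.1%, 38.6% to 79.7%) were absent after CHD9 depletion, beside 51.4% of the list, and 11 (61.1%) after BRM depletion, beside 52.2%. Among the 20 siCHD9/siHic5 GBR near members, 11 (55.0%) were absent from siCHD9/siNS, beside 46.0% in the list. Among the 25 siBRM/siHic5 GBR, 18 (72.0%) were absent from siBRM/siNS, beside 63.9%. The intervals of these shares are wide and include the values of the whole lists. The shares of siNS/siNS GBR were lower when weak calls were left out. With a −log10 q-value of at least 20 in each list, 3 of 9 (33.3%) were absent after CHD9 depletion. After BRM depletion 4 of 9 (44.4%) were absent at that limit, a share still inside the interval for the full list. Among the 1000 strongest peaks, 3 of 8 (37.5%) were absent after CHD9 and 2 of 8 (25.0%) after BRM depletion.

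**Figure D3:**
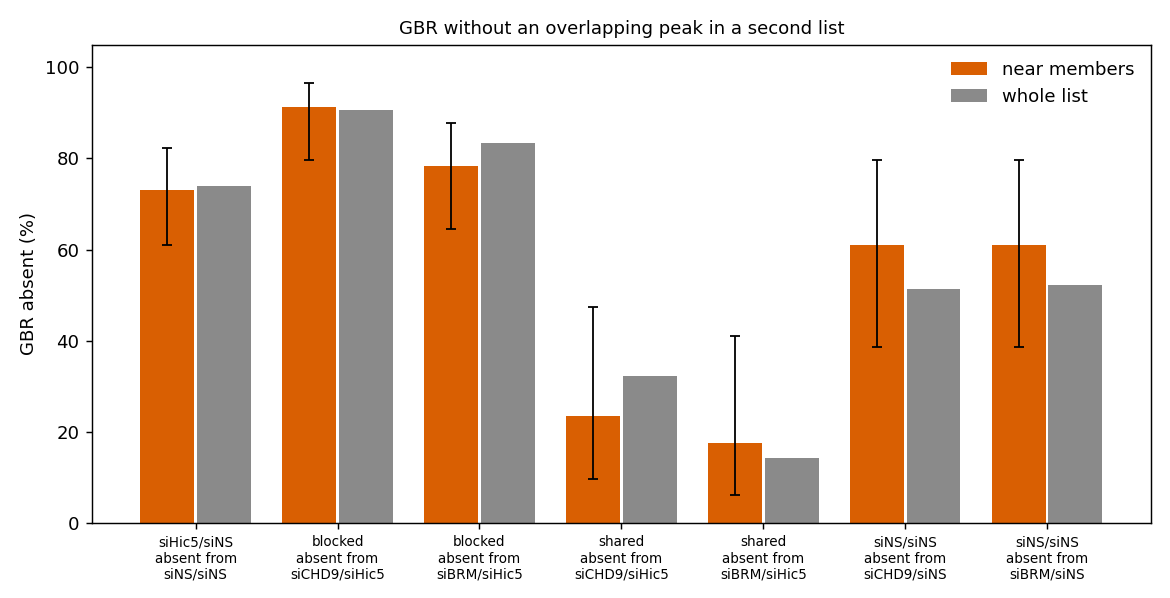
Percentage of GBR with no overlapping peak in another list, for GBR near members (orange, with 95% Wilson intervals for counting error) and for all GBR of that kind (grey). Blocked GBR near members were absent from siCHD9/siHic5 in 91.3% and shared GBR in 23.5%, and each orange interval holds the value of the grey bar beside it.

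Some GBR near members were called in a double depletion and not in siHic5/siNS. In siCHD9/siHic5, 3 of 20 (15.0%, 5.24% to 36.0%) had no siHic5/siNS peak, beside 3.43% of that list, a value below the interval. These 3 GBR ranked 1795, 2261 and 2262 of 2451. All 3 were counted for VASP but lay between 34.9 and 39.1 kb upstream of it, with the TSS of FOSB, which encodes an AP-1 subunit, as the nearest, and they overlapped FOSB and an intron of ERCC1. In siBRM/siHic5, 1 of 25 (4.00%) had no siHic5/siNS peak, beside 1.86%, and it lay 10.7 kb upstream of TNS4.

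The α subunits decide which matrix protein an integrin binds, and 7 of 12 had a siHic5/siNS GBR. Beside the counts given for each role stand the 27.1% of all protein-coding genes with a siHic5/siNS GBR and the 74.0% of all siHic5/siNS GBR that were blocked, and with so few GBR per role no role is set apart by them. Positions below are GRCh38, distances run from the summit to the canonical TSS, and ranks are places among the 9533 siHic5/siNS GBR, where 1 is the strongest. ITGA5, the α subunit of the fibronectin receptor, had the strongest GBR of any member. It lay at chr12:54420706-54421651, 2.06 kb upstream (rank 62, −log10 p 224) in an intron of the long noncoding RNA GPR84-AS1. It ranked 1520 of 2582 in siNS/siNS, 271 of 2451 in siCHD9/siHic5, 117 of 3383 in siBRM/siHic5 and 923 of 1415 in siCHD9/siNS, and siBRM/siNS did not call it. The ITGA5 site was thus called in 5 lists, among them the 3 lists with Hic-5 depleted. ITGA5 had blocked GBR at chr12:54428463-54429304, 9.59 kb upstream (rank 2489, −log10 p 36.8), called also in siBRM/siHic5, and at chr12:54419135-54419545, 68 bp upstream (rank 6689, −log10 p 16.7), called in no other list.

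ITGA10, a collagen-binding subunit of cartilage, had a GBR at chr1:145891837-145892549, 17.8 kb downstream (rank 378, −log10 p 113) in an untranslated region of ITGA10. This GBR was called in all 6 lists, with ranks between 201 and 378, and its nearest TSS was that of ANKRD35, 6.36 kb away. ITGA3, of a laminin receptor, had shared GBR at chr17:50027756-50028780, 27.6 kb upstream (rank 1372, −log10 p 55.8) and chr17:50064440-50065147, 8.80 kb downstream (rank 3562, −log10 p 28.1), both called in both double depletions but in neither list with only a remodeler depleted. ITGA2, of a collagen receptor, had a shared GBR at chr5:53031541-53032622, 42.5 kb downstream (rank 1012, −log10 p 67.4) that neither double depletion kept. These 3 genes had shared GBR only.

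ITGA7, of a laminin receptor of muscle, had a shared GBR at chr12:55681054-55681908, 26.4 kb downstream (rank 477, −log10 p 99.5), which was 189 bp from the TSS of METTL7B and was called in all lists but siBRM/siNS. Its blocked GBR at chr12:55728866-55729670, 21.3 kb upstream (rank 4726, −log10 p 22.5) lay in an intron of CD63. ITGA8 had blocked GBR at chr10:15710395-15710834, 9.29 kb downstream (rank 2929, −log10 p 32.5) and chr10:15742501-15743150, 22.8 kb upstream (rank 7879, −log10 p 14.3). ITGAV, which pairs with several β subunits to bind vitronectin and other ligands, had blocked GBR at chr2:186575131-186575696, 14.7 kb upstream (rank 3104, −log10 p 30.9) and chr2:186544217-186544688, 45.6 kb upstream (rank 5343, −log10 p 20.3), the latter the outermost inside the window. The 4 GBR of ITGA8 and ITGAV each held a GRE core and were called in siHic5/siNS alone. ITGA1, ITGA4, ITGA6, ITGA9 and ITGA11 had no GBR within the window in any list.

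The β subunits carry the tail to which the cytoskeletal proteins attach, and 5 of 6 had GBR. Of their 15 GBR, 12 were blocked. ITGB1, the common partner of most α subunits listed here, had 5 GBR and all were blocked. They lay at chr10:32952965-32953646, 4.84 kb downstream (rank 2721, −log10 p 34.5), at chr10:32957764-32958682, 161 bp upstream (rank 3209, −log10 p 30.2), at chr10:32962050-32962495, 4.06 kb upstream (rank 3779, −log10 p 26.9), at chr10:32992826-32993183, 34.8 kb upstream (rank 7980, −log10 p 14.2) and at chr10:33000240-33000631, 42.2 kb upstream (rank 8256, −log10 p 13.8), each in an intron of an ITGB1 transcript. The ITGB1 site at 4.84 kb was also called in siBRM/siHic5, where it ranked 3306 of 3383, and the others in no other list. ITGB1 was thus without a called GBR in 4 of the 6 lists.

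ITGB3, of the vitronectin receptor and of the fibrinogen receptor of platelets, had blocked GBR in siHic5/siNS alone, at chr17:47278936-47279716, 25.5 kb downstream (rank 2003, −log10 p 43.5), chr17:47239783-47240688, 13.6 kb upstream (rank 6404, −log10 p 17.5) and chr17:47265979-47266628, 12.4 kb downstream (rank 7717, −log10 p 14.7). ITGB8, which with αv activates latent TGF-β, had blocked GBR at chr7:20340807-20341427, 10.2 kb downstream (rank 1055, −log10 p 66.0) and chr7:20330109-20330877, 348 bp upstream (rank 2391, −log10 p 38.0). Both ITGB8 sites were called in both double depletions, and the site at 348 bp also in siCHD9/siNS, where it ranked 772 of 1415. ITGB8 thus held 2 of the 3 blocked GBR that both double depletions kept.

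ITGB6, which also pairs with αv, had a GBR at chr2:160228064-160229233, 28.5 kb upstream (rank 136, −log10 p 169) in an intron of a long noncoding RNA. It was called in all lists, with ranks of 71 in siNS/siNS, 35 in siCHD9/siHic5, 102 in siBRM/siHic5, 45 in siCHD9/siNS and 109 in siBRM/siNS. These lists differ in length, so the ranks place the site within each list and are not compared between them. ITGB4, the laminin-binding subunit of hemidesmosomes, had shared GBR at chr17:75693486-75694371, 27.5 kb upstream (rank 493, −log10 p 98.1) in SAP30BP and at chr17:75764222-75765328, 43.4 kb downstream (rank 2013, −log10 p 43.2) in GALK1. Its blocked GBR were at chr17:75684931-75685475, 36.2 kb upstream (rank 6510, −log10 p 17.1) and chr17:75743020-75743393, 21.8 kb downstream (rank 8250, −log10 p 13.8), and only the last lay in ITGB4 itself. The ITGB4 sites 27.5 kb upstream and 43.4 kb downstream were called in both double depletions. ITGB5 had no GBR in the window.

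The activators and actin linkers had 7 GBR near 4 of 7 genes, and no double depletion called any of them. Of these GBR, 6 were blocked and 1 was shared. Neither double depletion called 79.5% of the blocked class in the whole list, nor 11.2% of its shared class. With 7 GBR, the role is not set apart by this loss. TLN2, a talin, had a shared GBR at chr15:62394956-62395434, 4.64 kb downstream (rank 2220, −log10 p 40.2), near the end of the siNS/siNS list (rank 2572 of 2582), and a blocked GBR at chr15:62394091-62394543, 3.74 kb downstream (rank 3608, −log10 p 27.8). The GBR of TLN1, the other talin, at chr9:35689612-35690363, 42.3 kb downstream (rank 4068, −log10 p 25.4) was 48 bp from the TSS of TPM2, a tropomyosin gene. ACTN1, an α-actinin that crosslinks actin, had blocked GBR at chr14:68977545-68978894, 1.47 kb downstream (rank 4529, −log10 p 23.1) and chr14:68950142-68950554, 29.0 kb downstream (rank 5757, −log10 p 18.8). FLNA, a filamin that crosslinks actin and binds β tails, had blocked GBR at chrX:154369464-154369943, 4.99 kb downstream (rank 5920, −log10 p 18.7) and chrX:154368519-154369073, 5.84 kb downstream (rank 8890, −log10 p 12.9), both in introns. The kindlin gene FERMT2, VCL (vinculin) and ACTN4 had no GBR.

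ILK and the parvins form a complex at the β tail. PARVA had a shared GBR at chr11:12412359-12412861, 35.1 kb downstream (rank 1200, −log10 p 60.8) that both double depletions kept. PARVB had blocked GBR at chr22:44025823-44026345, 1.70 kb downstream (rank 6874, −log10 p 16.4) and chr22:44057313-44057730, 33.2 kb downstream (rank 8265, −log10 p 13.8) in siHic5/siNS alone, and ILK had none. The parvin genes thus differed in class.

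The kinases and the docking protein had 10 GBR, of which 8 were blocked. PTK2, focal adhesion kinase, had a strong shared GBR at chr8:141018515-141019369, 17.6 kb upstream (rank 214, −log10 p 141) called in all lists, with ranks between 90 and 273, and a blocked GBR at chr8:141020088-141020646, 19.0 kb upstream (rank 7770, −log10 p 14.5) called in siHic5/siNS alone. PTK2B, the related kinase PYK2, had the shared GBR chr8:27282389-27283009, 42.9 kb upstream (rank 726, −log10 p 80.8), called in all lists but siCHD9/siNS. Its 5 blocked GBR were at chr8:27286044-27286989, 38.9 kb upstream (rank 1059, −log10 p 65.9), chr8:27288538-27288965, 36.8 kb upstream (rank 3741, −log10 p 27.1), chr8:27307328-27307724, 18.0 kb upstream (rank 5002, −log10 p 21.4), chr8:27280692-27281534, 44.7 kb upstream (rank 5094, −log10 p 21.0) and chr8:27348348-27349252, 23.1 kb downstream (rank 3419, −log10 p 29.0). All 5 were called in siHic5/siNS alone. The 4 upstream of PTK2B were nearer to the TSS of TRIM35 or STMN4, and the shared GBR was nearer to that of STMN4. A further summit lay just outside the window of PTK2B, at 50270 bp. BCAR1, the docking protein p130Cas, had blocked GBR at chr16:75237691-75238944, 13.2 kb downstream (rank 1377, −log10 p 55.6), called also in siBRM/siHic5, and at chr16:75244972-75246011, 6.35 kb downstream (rank 5355, −log10 p 20.2).

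Among the adaptors, PXN, paxillin, a close relative of Hic-5, had a blocked GBR at chr12:120237258-120238222, 28.2 kb downstream (rank 2321, −log10 p 38.9) that both double depletions and siCHD9/siNS called. Its shared GBR at chr12:120262419-120263046, 2.96 kb downstream (rank 2475, −log10 p 37.0) was called in neither double depletion, and its blocked GBR at chr12:120230311-120231857, 34.1 kb downstream (rank 4620, −log10 p 22.8) in siHic5/siNS alone. The last was nearer to the TSS of RPLP0. PXN thus departed at 2 of its GBR from the usual course, in which shared sites kept and blocked sites lost the call. ZYX, zyxin, had a blocked GBR at chr7:143380612-143381508, 178 bp upstream (rank 3959, −log10 p 26.0). VASP, which extends actin filaments, had blocked GBR at chr19:45507208-45507818, 75 bp upstream (rank 4321, −log10 p 24.2) and chr19:45506584-45507039, 663 bp upstream (rank 6909, −log10 p 16.3). The ZYX site and the VASP site at 75 bp were also called in siBRM/siHic5, at ranks 2660 and 3108 of 3383, and not in siCHD9/siHic5. LPXN had none.

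The tensins bind β tails and actin. TNS2 had a shared GBR at chr12:53049468-53050212, 268 bp upstream (rank 584, −log10 p 90.6) called in all lists, with ranks between 398 and 819. Its blocked GBR at chr12:53079702-53080087, 29.9 kb downstream (rank 7429, −log10 p 15.2), was 571 bp from the TSS of SPRYD3. TNS4, a short tensin without the actin-binding region, had 6 siHic5/siNS GBR, the most of any member with PTK2B. The strongest, at chr17:40509834-40510779, 8.83 kb upstream (rank 321, −log10 p 120), was called in all lists with ranks between 160 and 358. A shared GBR at chr17:40485510-40486884, 15.3 kb downstream (rank 1475, −log10 p 53.5) and blocked GBR at chr17:40484371-40484961, 17.0 kb downstream (rank 1282, −log10 p 58.2) and chr17:40521002-40522063, 20.1 kb upstream (rank 1668, −log10 p 48.7) were kept in siBRM/siHic5 and not in siCHD9/siHic5. The blocked GBR at chr17:40536647-40537280, 35.4 kb upstream (rank 2397, −log10 p 37.8) was the only blocked GBR near a member kept in siCHD9/siHic5 and not in siBRM/siHic5, and that at chr17:40542384-40543104, 41.2 kb upstream (rank 8301, −log10 p 13.6) was in siHic5/siNS alone. Both were nearer to the TSS of CCR7. TNS1 had a blocked GBR at chr2:218003943-218004423, 1.21 kb upstream (rank 8460, −log10 p 13.5), and TNS3 had none.

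Strength differed between the classes. Within siHic5/siNS, blocked GBR near members had a median −log10 p of 22.7 (quartiles 16.3 and 32.1) and shared GBR a median of 80.8 (53.5 and 113). The whole list had medians of 18.7 and 54.7. The 8 strongest GBR near members were all shared, and the strongest blocked GBR were those of ITGB8 (66.0) and PTK2B (65.9). Median widths near members were 616 bp for blocked and 855 bp for shared GBR, beside 469 and 647 bp in the whole list. The members' GBR were thus stronger and wider than the list in both classes, and blocked GBR were the weaker class in both. The part of strength in the lost calls was not tested.

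**Figure D4:**
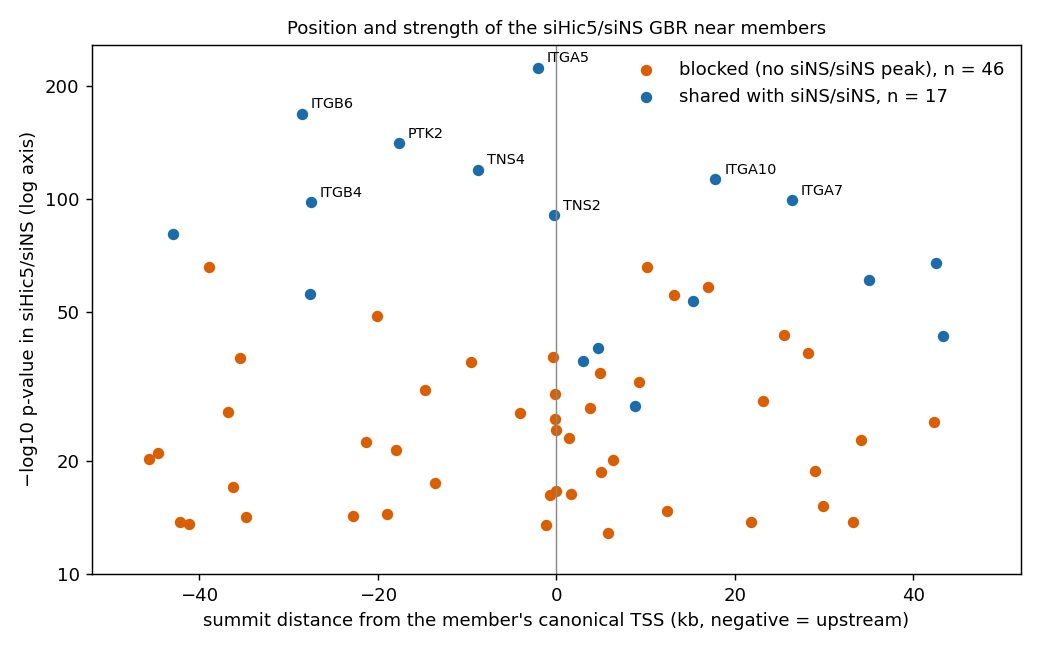
Summit distance from the member's canonical TSS in kb (x, negative upstream) and −log10 p-value in siHic5/siNS on a log axis (y) for the 63 GBR near members, blocked in orange (n = 46) and shared in blue (n = 17). The 8 strongest are shared and named, with ITGA5 the highest at 224, and blocked GBR fill the lower part of the plot on both sides of the TSS.

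Upstream of the members' TSS lay 33 GBR and downstream 30, and 30 were in an intron of the member. Within 10 kb lay 23, and within 1 kb 7, those of ITGA5, ITGB1, ITGB8, ZYX, VASP (with 2) and TNS2. All but that of TNS2 were blocked. The member held the nearest protein-coding TSS for 45 of the 63, so 18 were closer to another annotated TSS. Among the latter were both ITGB3 sites downstream of the TSS, in introns of ITGB3 and of an overlapping gene. They lay 12438 and 25474 bp from the TSS of ITGB3 and 12368 and 25404 bp from that of the overlapping gene. Counting any protein-coding TSS, 12 of the 63 (19.0%, 11.2% to 30.4%) lay within 1 kb of it, beside 9.40% of the 4630 siHic5/siNS GBR within 50 kb of any TSS. Of these 12, 9 (75.0%) were blocked, beside 75.9% of the 435 in the list. These 12 sites stood in sequence rich in G and C, from 57.0% to 74.6%, with the sites printed above for ITGB1 and ZYX the richest. The 1 kb centered on the summit was 73.4% G and C for ITGB1 and 74.6% for ZYX. The median was 65.3% for the 12 GBR within 1 kb of a TSS and 51.4% for the other 51, beside 46.7% for the whole siHic5/siNS list.

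Motifs were read as exact matches on both strands in the 200 bp centered on the summit. A GRE core occurred in 22 of 63 GBR near members (34.9%, 24.3% to 47.2%), beside 37.8% of all siHic5/siNS GBR. It was in 11 of 17 shared GBR (64.7%, 41.3% to 82.7%; list 47.2%) and in 11 of 46 blocked GBR (23.9%, 13.9% to 37.9%; list 34.6%). In 8 of these 11 shared GBR and 3 of the 11 blocked GBR the center of the core was within 10 bp of the summit. Shared GBR near members thus held the core more often than blocked ones, with a wider gap than in the list, a difference that was not tested. Among the shared GBR printed above, the core sat near the summit in ITGB6 and TNS4. ITGA5 had no exact core but a full GRE with at most 1 mismatch of 10 defined positions in its 200 bp. The strongest blocked GBR near a member, that of ITGB8, likewise had no exact core but such a full GRE. Read by the full GRE, the shares near members were 64.7% of shared GBR (list 60.4%) and 28.3% of blocked GBR (list 41.1%).

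An AP-1 site occurred in 17 of 63 GBR (27.0%), beside 19.4% of the list, with like shares of blocked (26.1%) and shared (29.4%) GBR. An ETS site occurred in 12 of 63 (19.0%), beside 15.2%, in 11 of 46 blocked GBR (23.9%; list 16.0%) and 1 of 17 shared GBR (5.88%; list 13.0%), the latter near ITGA3. Blocked GBR with an ETS site included those at the TSS of ITGB1 and ZYX. A CArG box is the element of serum response factor, a regulator of actin and adhesion genes. It occurred in 2 of 63 (3.17%, 0.875% to 10.9%), near FLNA and BCAR1, beside 0.944% of the list, a value inside that interval. Both were blocked (2 of 46, 4.35%, 1.20% to 14.5%), beside 0.963% of blocked GBR in the list. With 2 matches, CArG is given as a count only. GRE core, AP-1 and ETS were all lacking in 21 of the 63 GBR. The motif letters are short, a match is not a bound site, and for the GRE core, AP-1 and ETS the intervals of the member shares hold the list values.

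**Figure D5:**
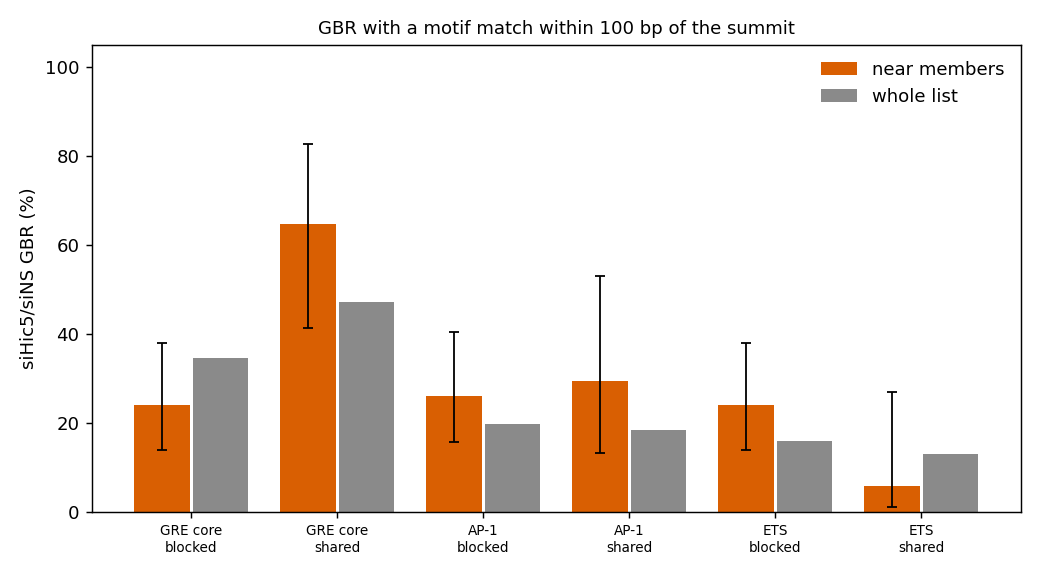
Percentage of siHic5/siNS GBR with a motif match within 100 bp of the summit, near members (orange, with 95% Wilson intervals for counting error) and in the whole list (grey), split into blocked and shared GBR. The GRE core was in 64.7% of shared and 23.9% of blocked GBR near members, and the ETS site in 5.88% and 23.9%.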

How the data were processed

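ChIP-seq of GR was done in 12 ChIP and 6 input libraries. The authors mapped trimmed single-end reads by BWA to GRCh38 (hg38) without duplicate or mitochondrial reads, and obtained peaks from pooled replicates by MACS2 and the IDR framework. DiffBind is also named in the submitters' processing notes. Versions and the IDR threshold are not given in the sources used here. For each peak the deposited lists give a signal value, which was not compared between lists, and p- and q-values that MACS2 put on the −log10 scale.

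Peaks were matched by an overlap of at least 1 bp, and a summit was assigned to each member within 50 kb of its canonical TSS (GENCODE release 44). No GBR was counted for more than 1 member. Genes of all 39 members were found. Ranks follow the −log10 p-value. Scripts ran in Python 3.11.15 with numpy 2.4.6, pandas 2.3.3 and scipy 1.17.1, and were tested on simulated data, with overlaps checked against bedtools 2.31.1. Other adhesion genes were taken from textbook lists. All 39 members were to be named by role with each of their GBR, and sequences were those of the 3 strongest shared and 3 strongest blocked GBR that could be printed. Members and lists were chosen with earlier results of these data known. No test was run, since each list pools 2 replicates. The alternatives were other windows, starts, overlaps, strength limits and motif settings.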

Additional observations from a re-analysis of the deposited data

How the results depend on the processing

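No paired analysis was possible because each list pools the replicates of its group, and leaving out a replicate was not run for the same reason. Of 72 values recomputed over 10 results and 9 settings, 57 stayed within the interval of the reported share or within 1.5 times the reported count, and 15 moved. No setting changed the order of blocked and shared losses except the limit to the 1000 strongest peaks. A window of 10 kb gave 16 members and 23 GBR in place of 27 and 63, and 100 kb gave 100 GBR. Counting any transcript start gave 95 GBR. Either wider setting added ITGA1, ITGA6, ITGA9, ITGA11, ITGB5, VCL and TNS3, so that ITGA4, FERMT2, ACTN4, ILK and LPXN alone stayed without a GBR. With a −log10 q-value of at least 20 in each list, 38 GBR were left, 58.6% of blocked GBR in place of 78.3% were absent from siBRM/siHic5, and 33.3% of siNS/siNS GBR in place of 61.1% from siCHD9/siNS. With the 1000 strongest peaks of each list, 9 members and 9 GBR were left and 22.2% were blocked. Those 2 blocked GBR, near ITGA5 and ITGA7, are shared in the full lists. Of them 0% were absent from siCHD9/siHic5 and 0% from siBRM/siHic5, 37.5% and 25.0% of siNS/siNS GBR were absent from siCHD9/siNS and siBRM/siNS, and 77.8% held a GRE core. This limit leaves too few GBR for a comparison of the classes. Depth is not in the lists, so a weak site that was not called may still be bound.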

Other observations

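Other adhesion genes were counted in the same way. TGFB1I1, which encodes Hic-5, had no GBR within 50 kb in any of the 6 lists. Of 8 other integrin genes, mostly those of leukocytes and platelets, 3 had a siHic5/siNS GBR (ITGA2B, ITGB2 and ITGB7). All 5 of these GBR were blocked, and both double depletions lacked them, as they lacked 79.5% of all blocked GBR. Beside these counts, 27.1% of all protein-coding genes had a siHic5/siNS GBR and 74.0% of all siHic5/siNS GBR were blocked, shares that apply to the lists that follow too. Of 35 other adhesion proteins and signalling partners, 12 had 18 GBR, of which 16 were blocked. SDC4, a syndecan coreceptor of integrins, had 1 blocked and 1 shared GBR.

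Of 16 genes for matrix ligands of integrins 4 had a siHic5/siNS GBR, and the same number had a siNS/siNS GBR. They were FN1 (fibronectin), LAMA5 and LAMB1 (laminin chains) and NID1 (nidogen), with 6 GBR of which 5 were shared. LAMB1 had a GBR in all 6 lists. With 6 GBR, the mix of classes is given as a count only.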
